A study of Homo sapiens with 6 samples.

Results

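CD74, CIITA, HLA-DPB1 and HLA-B were lower in A375 cells that overexpress CYGB than in wildtype A375 cells under each scaling tried, although under TMM and DESeq2 scaling over the table only CD74 and HLA-B passed the test. Under the main scaling CD74, the most abundant of the 4, stood at 30.4% of its wildtype level and CIITA at 40.0%. These sizes rest on the level taken between the groups. The log2 fold changes were -1.72 and -1.32, against -0.52 and -0.12 under TMM over the table. Of the 4, HLA-B had the largest fold and also the largest spread among libraries. The genes were chosen by name, as rows of the deposited table named CD74 or CIITA or beginning with HLA-, and 4 of its 2778 features are described. CD74, CIITA and HLA-DPB1 belong to MHC class II and HLA-B to class I.

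A375 is an established human melanoma line. RNA-seq was run on 3 libraries of cells labelled CYGB-overexpression (CYGB-OE) and on 3 libraries of wildtype cells (WT). Both groups were untreated and were grown in DMEM with serum and antibiotics. CYGB encodes the haem-binding globin cytoglobin, and the series asks which transcripts differ when it is overexpressed. The labels give no promoter, vector, clone or empty-vector control for the CYGB-OE cells, and they do not state whether libraries within a group are separate cultures. The spread that p-values measure here may thus be technical.

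MHC class I molecules display peptides from inside the cell to CD8 T cells. HLA-B encodes one of their classical heavy chains. MHC class II molecules display peptides from the endosomal route to CD4 T cells. HLA-DPB1 encodes the beta chain of one class II molecule, HLA-DP. CD74 encodes the invariant chain, which guides class II molecules to endosomes and blocks their groove until a peptide is loaded. It also serves at the cell surface as a receptor for the cytokine MIF. CIITA encodes the class II transactivator, which does not bind DNA itself but is recruited by RFX, CREB and NF-Y proteins at the X and Y boxes of class II promoters. Class II is best known from professional antigen-presenting cells, and melanoma cells can express it too.

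The promoter of class II genes is where CIITA is recruited, so the 120 bases before the RefSeq start are shown for CD74, HLA-DPB1 and HLA-B, the 3 of the 4 genes matched in the RefSeq promoter table (GRCh38.p14). Each is written 5′ to 3′ on the strand of its gene, at chr5:150412911-150413030 (minus strand), chr6:33075870-33075989 (plus strand) and chr6:31357180-31357299 (minus strand). The GENCODE genes begin upstream of these RefSeq starts, so the last 19, 64 and 9 bases shown for CD74, HLA-DPB1 and HLA-B lie inside the GENCODE gene. Capitals mark the Y box core (ATTGG, or CCAAT where it lies on the other strand) and the X2 core (TGACG).
CD74: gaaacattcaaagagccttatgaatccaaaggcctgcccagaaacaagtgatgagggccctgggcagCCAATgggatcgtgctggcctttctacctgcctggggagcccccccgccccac
HLA-DPB1: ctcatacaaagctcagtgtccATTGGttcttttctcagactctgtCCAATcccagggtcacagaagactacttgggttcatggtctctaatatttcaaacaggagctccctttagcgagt
HLA-B: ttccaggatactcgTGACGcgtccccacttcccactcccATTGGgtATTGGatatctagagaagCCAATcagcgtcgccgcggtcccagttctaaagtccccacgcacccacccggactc

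All 3 promoters held the Y box core within the 250 bases before the start, on either strand, as did 32.0% of the 35116 promoters in the table. CD74 had 1 match, HLA-DPB1 had 2 and HLA-B had 3. The X2 core was found in HLA-B and, farther upstream at 193 bases before the start, in HLA-DPB1, against 21.2% of all promoters. The X1 letters searched (GCAAC) were in none of the 3 windows and in 28.2% of all promoters. The same letters followed by a Y box core were in none of the 3 and in 1.12% of all promoters. Neither the interferon element (GAAA, any 2 bases, GAAA), the GAS element (TTC, any 3 bases, GAA) nor the kB element (GGGA, any base, TTCC) was in any of the 3, against 3.02%, 6.57% and 1.59% of all promoters. A match in letters is a description only, and no match says only that these letters are not in that window.

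The deposited table holds raw counts of features that were selected on these same libraries. A stretch of log2 ratios 1.99 wide is missing from it. Its columns sum to between 1533260 and 2801576 counts, which is not the depth of a library. Within a group counts were scaled by TMM, and between groups the middle of that gap, called the empty band here, was taken as 0, which puts its edges at -0.995 and 0.995. TMM over the table puts every log2 fold change 1.2 higher, so the size of each fold rests on the level chosen. CYGB had 22518, 20740 and 26267 counts in CYGB-OE and 33, 47 and 37 counts in WT replicates 1 to 3, which matches the labels. CYGB-OE replicate 1 stood apart, with a median absolute log2 difference of 0.458 and 0.467 from replicates 2 and 3, against 0.211 between those 2 and 0.175 to 0.185 among the WT libraries. Of 11 melanocyte and melanoma markers only TYRP1 and DCT were in the table, and the others were not analysed here. TYRP1 had 8, 3 and 1 counts in CYGB-OE and 25, 17 and 32 in WT, and DCT had 0, 0 and 0 in CYGB-OE and 2, 13 and 15 in WT.

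All 4 genes passed the filter on low counts. Each was lower in CYGB-OE past the threshold of an adjusted p of 0.05 (edgeR quasi-likelihood test), and in each every CYGB-OE library lay below every WT library. Of the 2465 tested features 71.5% were called lower, 99.8% were called in one direction or the other, and in 71.2% the groups were apart with CYGB-OE below. That is 1762 lower and 697 higher features, against 465 lower (18.7% of the 2481 features then tested) and 745 higher under TMM over the table. The calls of the 4 genes are therefore no more than the table's selection gives. The median log2 fold change was -1.62 for the 4 genes and -1.30 for all tested features.

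CD74 (ENSG00000019582, GRCh38 chromosome 5, 150401637 to 150412929, minus strand, protein-coding) had normalized counts of 9910, 10780 and 10830 in CYGB-OE replicates 1 to 3, against 34730, 34800 and 34290 in WT replicates 1 to 3. The groups were far apart, with the highest CYGB-OE library at 31.6% of the lowest WT library. The means were 10510 ± 517 in CYGB-OE and 34610 ± 279 in WT (SD, n = 3 each). This is a log2 fold change of -1.72 (95% interval -1.89 to -1.55; edgeR adjusted p = 9.56e-07). CD74 kept its call under every scaling tried, at -0.52 under TMM over the table (edgeR adjusted p = 0.000317). Its fold was larger than the median of the table, but 29.8% of tested features had a lower log2 fold change still.

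CIITA (ENSG00000179583, chromosome 16, 10866222 to 10943021, plus strand) had normalized counts of 476.8, 486.9 and 470.8 in CYGB-OE, against 1182, 1175 and 1227 in WT. Libraries of a group lay within a few percent of each other, with a coefficient of variation of 1.70% in CYGB-OE and 2.33% in WT. Counting error alone would give 4.63% and 2.84%. The means were 478 ± 8.14 in CYGB-OE and 1195 ± 27.8 in WT (SD, n = 3 each), and the log2 fold change was -1.32 (95% interval -1.54 to -1.10; edgeR adjusted p = 7.61e-06). That is close to the median of all tested features, and under TMM over the table CIITA was not called, at -0.12 (edgeR adjusted p = 0.374). The annotation places DEXI, a protein-coding gene, on the opposite strand inside the CIITA locus. Since the strand setting of the counting is not given, reads of the pair cannot be told apart where they overlap.

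HLA-DPB1 (ENSG00000223865, chromosome 6, 33075926 to 33087201, plus strand) had normalized counts of 42.67, 55.83 and 59.07 in CYGB-OE, against 152.9, 159.7 and 139.2 in WT. CYGB-OE replicate 1 was the lowest library. The raw counts behind these values were 40, 50 and 65 in CYGB-OE and 139, 202 and 131 in WT. The coefficient of variation was 16.5% in CYGB-OE and 6.91% in WT, where counting error alone would give 13.9% and 7.97%. The log2 fold change was -1.52 (95% interval -1.96 to -1.07; edgeR adjusted p = 0.000116). Under TMM over the table it was -0.32 and not called (edgeR adjusted p = 0.230). HLA-DPA1, which encodes the alpha chain that pairs with HLA-DPB1, overlaps it on the opposite strand, so some of these reads may be of HLA-DPA1.

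HLA-B (ENSG00000234745, chromosome 6, 31269491 to 31357188, minus strand) had normalized counts of 46.93, 26.8 and 18.18 in CYGB-OE, against 205.7, 251.3 and 778.0 in WT. WT replicate 3 was 3.10 times as high as the higher of the other WT libraries. Such a gap is rare in the table. Of 2425 features with a mean WT normalized count of at least 10, WT replicate 3 was at least 2-fold above both other WT libraries in 10, and HLA-B ranked 2 among them. In CYGB-OE the highest library was replicate 1. The means were 30.6 ± 14.8 in CYGB-OE and 412 ± 318 in WT (SD, n = 3 each), which puts the coefficient of variation at 48.2% in CYGB-OE and 77.3% in WT, where counting error alone would give 18.5% and 4.92%.

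The log2 fold change of HLA-B was -3.75 (95% interval -5.30 to -2.21; edgeR adjusted p = 0.00116), which ranked 64 from the lowest of 2465. Without WT replicate 3 it was -2.91 (edgeR adjusted p = 0.00033). HLA-B was still called under TMM over the table, at -2.55 (edgeR adjusted p = 0.0107). In GENCODE release 29 the annotated span of HLA-B runs over that of HLA-C on the same strand, so reads of HLA-C exons may be shared with it or left out, depending on counting settings that no label or header states.

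**Figure D1:**
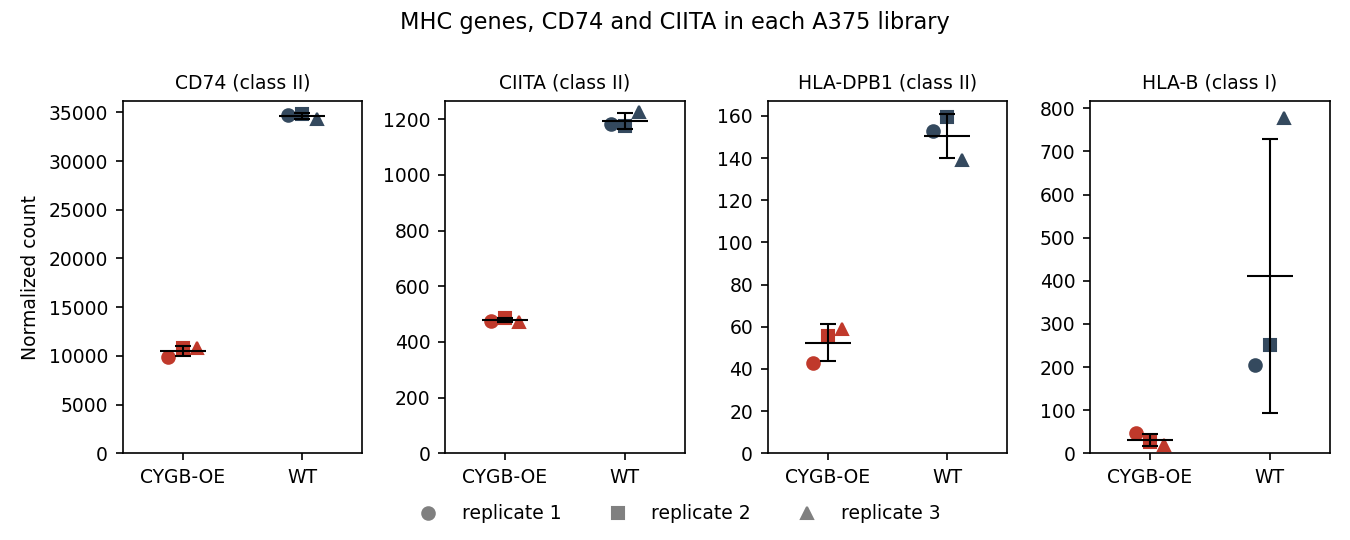
Normalized counts (y axis, linear, from 0, own range per panel) of the 4 genes in the 3 CYGB-OE and 3 WT libraries; symbols are replicates and black bars are mean ± SD. The groups are apart in all 4 panels, and WT replicate 3 stands at 778.0 for HLA-B, above 205.7 and 251.3 in the other WT libraries.

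**Figure D2:**
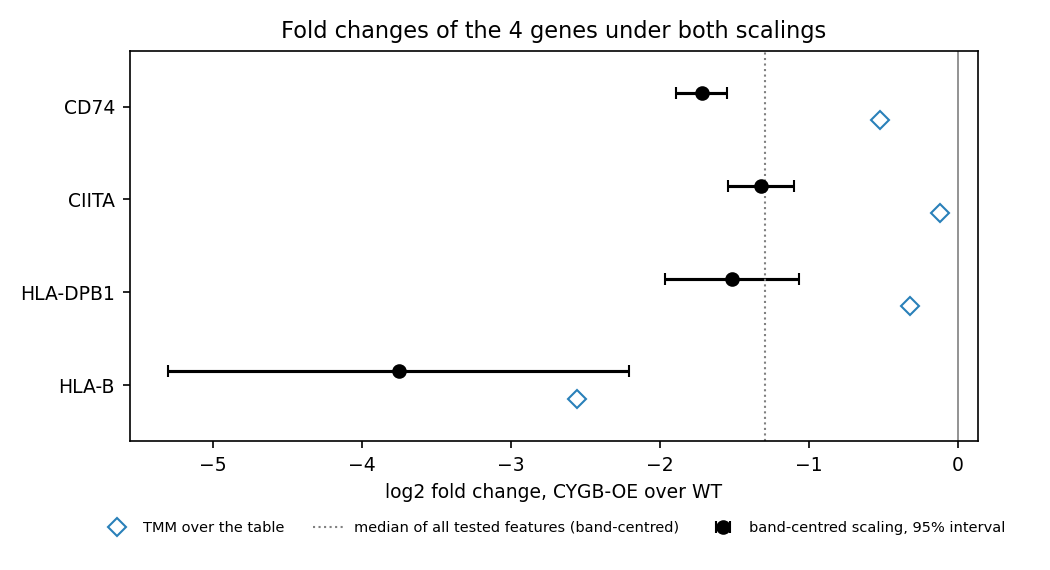
Log2 fold changes of CYGB-OE over WT (x axis) for the 4 genes (y axis), with the level set by the empty band (black, 95% interval) and under TMM over the table (open diamonds); the dotted line is the median of all tested features, -1.30. The diamonds lie 1.2 to the right, where CIITA and HLA-DPB1 lie near 0.

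Levels of different genes were set side by side per kilobase of exons in annotated protein-coding transcripts. In CYGB-OE, CD74 had 6280 normalized counts per kilobase, HLA-DPB1 33.7, CIITA 29.7 and HLA-B 19.3. In WT, CD74 had 20700, HLA-B 260 (130 to 491 over libraries), HLA-DPB1 96.5 and CIITA 74.2. Without WT replicate 3 HLA-B was at 144, still after CD74. With these exon lengths CD74 was first in both groups, and HLA-B held the place after CD74 in WT but not in CYGB-OE. In CYGB-OE the ranges over libraries of HLA-DPB1 (27.4 to 37.9) and CIITA (29.2 to 30.2) overlapped, as did those of HLA-DPB1 and HLA-B (11.5 to 29.6), so the order of those 3 is not separated. The order of CIITA and HLA-DPB1 also turned round in both groups when all annotated exons were used (23.0 against 18.8 in CYGB-OE and 57.6 against 54.0 in WT). The first measure joined the exons of all those transcripts, which gave 16108 bases for CIITA, 1560 for HLA-DPB1 and 1586 for HLA-B. Which transcripts the cells use was not examined, so the place of CIITA, also against HLA-B, rests on its length.

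HLA genes resemble each other, and reads that fit several genes may be dropped or split by the counting. Of the different 50-base stretches in protein-coding GENCODE transcripts of HLA-B, 2.12% also occurred in transcripts of other genes, most often HLA-C. The share was 2.46% for HLA-DPB1, most often HLA-DPB2. It was 14.5% for CIITA, most often in AC133065.3, a transcript inside the locus, and 0 of 2121 stretches for CD74. The counts of CIITA, HLA-B and HLA-DPB1 are therefore less certain than that of CD74, and the HLA alleles of A375 cells were not examined here.

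The ratio of genes within a library does not depend on the level set between libraries. It shows where the 4 genes differed in their fold. In CYGB-OE replicates 1 to 3 there were 0.0481, 0.0452 and 0.0435 CIITA counts per CD74 count, against 0.0340, 0.0338 and 0.0358 in WT. All CYGB-OE libraries lay above all WT libraries, and CIITA per CD74 was 0.40 ± 0.05 log2 units higher (difference ± SE; exact permutation test, two-sided, p = 0.1, adjusted p = 0.133 over 4 ratios). With 3 against 3 libraries 0.1 is the smallest p this test can give, so it cannot pass a threshold of 0.05. Without any 1 library the difference was 0.36 to 0.43.

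HLA-DPB1 counts per CD74 count were 0.00431, 0.00518 and 0.00546 in CYGB-OE and 0.00440, 0.00459 and 0.00406 in WT. The groups overlapped, and the difference of 0.19 log2 units (SE 0.12) was not beyond the spread of the libraries (exact permutation p = 0.3). CYGB-OE replicate 1 gave the low value. Without it the groups no longer overlapped and the difference was 0.29 (exact permutation p = 0.1, the smallest that is possible).

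Class II was then set against HLA-B, the class I gene described. There were 211, 402 and 596 CD74 counts per HLA-B count in CYGB-OE, against 169, 138 and 44.1 in WT. The groups did not overlap, although CYGB-OE replicate 1 and WT replicate 1 were close. The difference was 1.87 log2 units (SE 0.75; exact permutation p = 0.1, adjusted p = 0.133). Without WT replicate 3 it was 1.27, and without CYGB-OE replicate 1 it was 2.28. The exact permutation p rose to 0.2 without CYGB-OE replicate 2, CYGB-OE replicate 3 or WT replicate 3. The summed counts of CD74, CIITA and HLA-DPB1 gave nearly the same values, at 222, 423 and 625 per HLA-B count in CYGB-OE and 175, 144 and 45.8 in WT, a difference of 1.89 (SE 0.74; exact permutation p = 0.1, adjusted p = 0.133). CD74 makes up most of that sum.

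**Figure D3:**
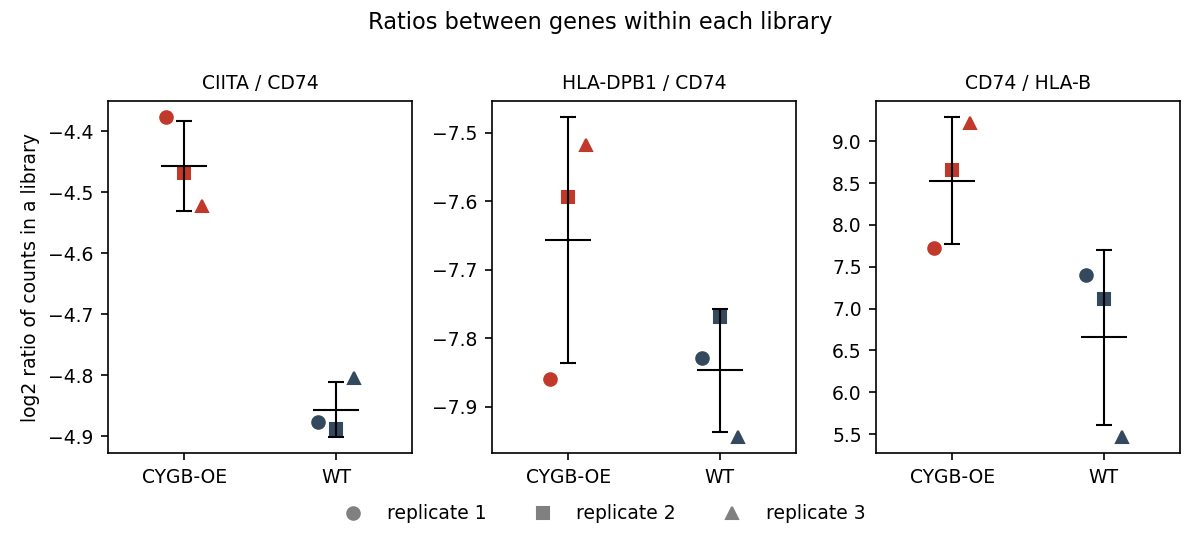
Log2 ratio of raw counts between pairs of genes within each library (y axis, own range per panel, not from 0) in 3 CYGB-OE and 3 WT libraries; symbols are replicates and bars mean ± SD. The groups are apart for CIITA to CD74 and for CD74 to HLA-B, and overlap for HLA-DPB1 to CD74.

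Among the other features of the table with a mean normalized count of at least 1000, 298 in all, the 5 whose log2 profile over the 6 libraries, centred on its own mean, lay nearest that of CD74 (Euclidean distance) were LETMD1, CCNB1IP1, C9orf16, LMCD1 and CSPG4, at distances of 0.176, 0.182, 0.218, 0.230 and 0.231 log2 units. CSPG4, a surface proteoglycan known as a melanoma antigen, averaged 14610 normalized counts in CYGB-OE and 53780 in WT. The distance to CD74 was 0.371 for HLA-DPB1, 0.506 for CIITA and 2.90 for HLA-B. HLA-B, HLA-DPB1 and CIITA had a mean normalized count under 1000, where counting error is larger, so these distances are not comparable with those of the 5 features.

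HLA-B and HLA-DPB1 lie in the MHC on chromosome 6, while CD74 and CIITA lie outside it. HCP5, a long non-coding RNA, and BRD2, which encodes a bromodomain protein, lie in the same region and were also in the table. HCP5 had 0, 0 and 0 counts in CYGB-OE and 8, 6 and 3 in WT and did not pass the filter on low counts. BRD2 had normalized counts of 42.67, 35.73 and 92.7 in CYGB-OE, against 12.1, 36.36 and 19.13 in WT, and the groups overlapped. Its log2 fold change of 1.31 (edgeR adjusted p = 0.026) was no longer called without CYGB-OE replicate 3, WT replicate 1 or WT replicate 3, at 0.76, 1.03 and 1.20. Other genes of the region are not described here.

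Genes that work with the MHC were taken from 7 lists of 153 gene symbols in all. Of these, 19 were in the table and 18 were tested, with 2 higher, 15 lower and 1 not called. Of all tested features 71.5% were called lower and 99.8% either way. The median log2 fold change was -1.67 for these 18 genes and -1.30 for all tested features. Of the 15 lower genes 14 stayed below 0 under TMM over the table. The share of all lower features that did so was not computed. The median log2 fold change of all lower features was -1.58 under the main scaling, so a shift of 1.2 leaves that median below 0. Of the 18 tested genes 6 were called lower under TMM over the table, against 18.7% of all tested features. Those 6 were MARCH1, GBP2, GBP4, ICAM1, CD40 and ICOSLG.

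Of 21 genes that load class I molecules or supply their peptides, 2 were in the table. Both were called lower (median log2 fold change -1.48), against 71.5% of all tested features. Neither was called under TMM over the table, where 18.7% of all tested features were called lower. PSMB10, a catalytic subunit of the immunoproteasome, averaged 77.0 ± 17.5 normalized counts in CYGB-OE and 199 ± 37.0 in WT (log2 fold change -1.37, SE 0.23; edgeR adjusted p = 0.000453). TAPBP encodes tapasin, which holds class I molecules at the peptide transporter. It had 12, 7 and 4 counts in CYGB-OE and 24, 32 and 19 in WT (log2 fold change -1.59, SE 0.41; edgeR adjusted p = 0.00483). Its call was lost when adjusted over all annotated genes (edgeR adjusted p = 0.115, over 58735 genes).

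Of 23 genes of class II transcription, processing and trafficking, 3 were in the table. All 3 were lower (median -2.25), against 71.5% of all tested features. Under TMM over the table, where 18.7% of all tested features were called lower, only MARCH1 kept its call. CTSF, the endosomal protease cathepsin F, had normalized counts of 883.2, 1043 and 1055 in CYGB-OE, against 2457, 2441 and 2381 in WT, with a log2 fold change of -1.29, or -0.09 under TMM over the table. MARCH1, a ubiquitin ligase that sends class II molecules to degradation, had 8.53, 24.6 and 25.5 in CYGB-OE, against 107.8, 91.7 and 82.9 in WT (log2 fold change -2.25). CD82, a tetraspanin of the class II compartments, had 162, 48.0 and 49.1 in CYGB-OE, against 389, 470 and 403 in WT. CYGB-OE replicate 1 was the high one, and the log2 fold change of -2.29 was -3.11 without it. Adjusted over all annotated genes, CD82 was not called (edgeR adjusted p = 0.0621). None of the RFX and NF-Y genes on the list was in the table.

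Of 28 genes of interferon gamma signalling, a known inducer of CIITA and of class I genes, 5 were in the table and all 5 were lower (median -2.56), against 71.5% of all tested features. Under TMM over the table GBP2, GBP4 and ICAM1 kept their calls and IRF1 and GBP1 did not. Of all features tested there 18.7% were called lower. GBP2, a guanylate-binding protein, had normalized counts of 876.8, 756 and 780.6 in CYGB-OE, against 4832, 4597 and 4824 in WT (log2 fold change -2.56, SE 0.10; edgeR adjusted p = 9.56e-07). Under TMM over the table it was at -1.36. GBP4 had 8, 0 and 4 counts in CYGB-OE and 50, 89 and 41 in WT (log2 fold change -3.75, or -4.75 without CYGB-OE replicate 1). GBP1 had a log2 fold change of -1.06, but of 0.14 with TMM over the table. IRF1, a transcription factor of class I promoters, had 819, 376 and 351 in CYGB-OE, against 1520, 1399 and 1464 in WT (log2 fold change -1.50; edgeR adjusted p = 0.00328). Among the CYGB-OE libraries all 5 genes were highest in replicate 1, the library that stood apart, and so was HLA-B. CD74 and HLA-DPB1 were lowest in that library, and CIITA had its middle value there. In WT HLA-B was highest in replicate 3, at 778.0, where IRF1 had its middle value of 1464. ICAM1, an adhesion molecule for T cells, had a log2 fold change of -2.82, or -3.70 without CYGB-OE replicate 1. The calls of IRF1 and ICAM1 were lost when adjusted over all annotated genes (edgeR adjusted p = 0.078 and 0.0786).

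Of 22 genes of the class I-like fold and ligands of natural killer cells, 4 were in the table, 1 higher and 3 lower. Of all tested features 71.5% were called lower. Under TMM over the table none of the 3 was called lower, against 18.7% of all tested features. The higher one was RAET1E, a ligand of the receptor NKG2D. It had normalized counts of 134.4, 174.2 and 158.1 in CYGB-OE, against 50.6, 50.6 and 44.6 in WT (log2 fold change 1.67, SE 0.19; edgeR adjusted p = 5.83e-05). MR1, which presents vitamin B metabolites, and AZGP1, a secreted protein of this fold, had log2 fold changes of -1.39 and -1.61. FCGRT, the neonatal Fc receptor, had only 10, 1 and 3 counts in CYGB-OE and 12, 30 and 25 in WT. Its log2 fold change was -2.13, or -3.34 without CYGB-OE replicate 1. The calls of MR1 and FCGRT were lost when adjusted over all annotated genes (edgeR adjusted p = 0.0537 and 0.164).

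Of 18 T-cell costimulators and checkpoints 3 were in the table, and CD40 and ICOSLG were lower, against 71.5% of all tested features. Their log2 fold changes were -1.72 and -1.85. Both of them, out of the 3 tested, were also called lower under TMM over the table (edgeR adjusted p = 0.0218 and 0.0466), against 18.7% of all tested features. TNFRSF14 was not called (log2 fold change -2.04, SE 0.94; edgeR adjusted p = 0.0669). WT replicate 1 held 121 normalized counts and the other WT libraries 23.7 and 18.1. Without WT replicate 1 its log2 fold change was -0.70, and without WT replicate 2 or 3 it was called at -2.41 and -2.45 (edgeR adjusted p = 0.0396 and 0.03). None of 9 genes on the list of CD74 partners as a MIF receptor was in the table.

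**Figure D4:**
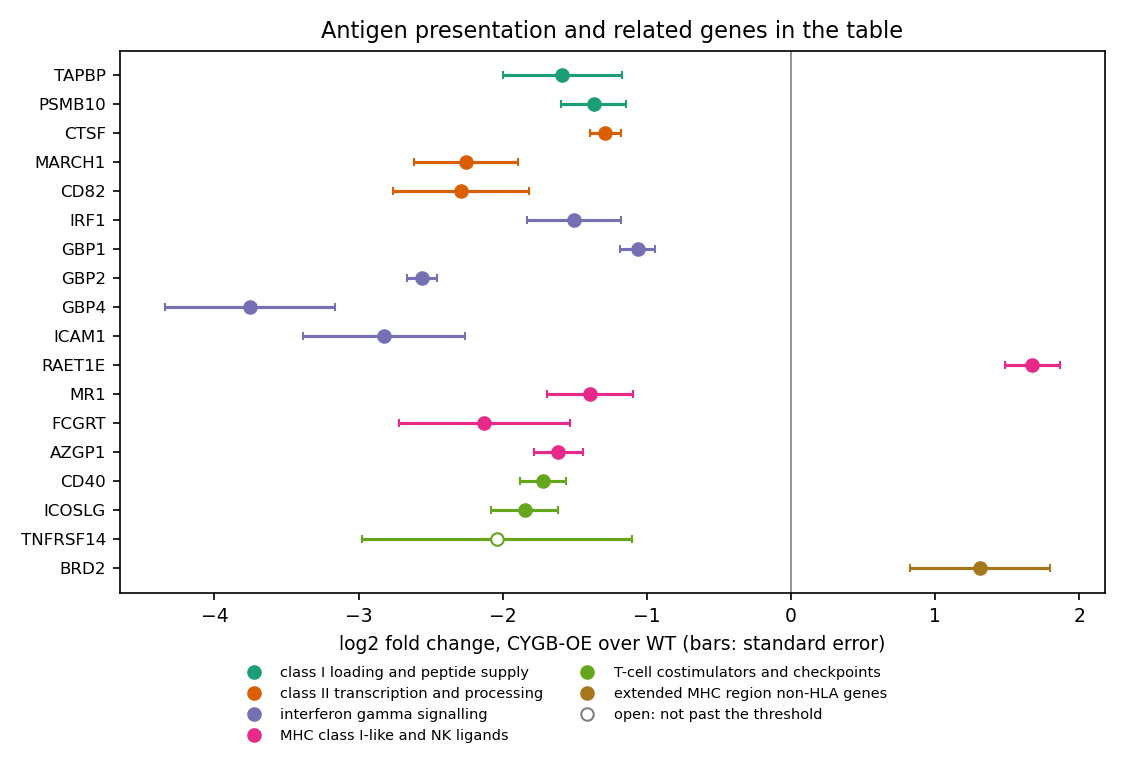
Log2 fold changes of CYGB-OE over WT (x axis, bars are the standard error) of the 18 tested genes on the lists (y axis), coloured by list; the open point did not pass the threshold. RAET1E and BRD2 lie above 0 and the other 16 below.

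Since class II genes mark professional antigen-presenting cells, markers of such cells were looked up beside these results. In bulk RNA, fewer cells of a type and less RNA per cell cannot be told apart. None of 5 B cell markers, none of 4 T cell markers and not PTPRC, the pan-leukocyte marker, was in the table, and their levels were not analysed here. Of 7 dendritic cell markers ITGAX and LAMP3 were in the table, and their summed normalized count was 55.5 to 81.8 in CYGB-OE and 249 to 313 in WT. Of 7 macrophage and monocyte markers only LYZ was in the table, at 223 to 341 in CYGB-OE and 43.6 to 55.3 in WT, which is the opposite direction. Of 6 fibroblast markers COL1A2 was in the table, at 36.3 to 173 in CYGB-OE and 0 to 3.16 in WT, and of 4 endothelial markers KDR, at 8.93 to 10.9 in CYGB-OE and 114 to 126 in WT. Every library was labelled as A375 cells, and the part of other cell types in the results was not tested.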

How the data were processed

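Raw counts of 3 CYGB-OE and 3 WT libraries were deposited by the authors in 1 table, per the file headers. Messenger RNA was captured on poly-T beads, per the labels' protocols. The submitters' processing notes name STAR 2.5.2b, Trimmomatic 0.36, Subread 1.5.2 and featureCounts, and GRCh38. The annotation, the strand setting and the rule by which features were selected are not stated. Of 2615 Ensembl identifiers, 2611 were found in GENCODE release 29. Unnamed loci held 1.25% to 1.64% of counts.

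Scaling used TMM inside each group and the middle of the gap in log2 ratios as 0 between groups. This departs from TMM over the table, which assumes mostly unchanged features. Features were tested with edgeR 4.0.16 in R 4.3.3 (quasi-likelihood F test, two-sided, filterByExpr with a minimum count of 10, group as the only term, Benjamini-Hochberg over 2465 features, threshold 0.05). Normalized counts are counts over the resulting factors, and intervals use the test's own degrees of freedom. The tests and the scaling were tested on simulated data. There the features were selected around the true level, so the simulation could not show whether the selection of these data was. Alternatives were other scalings, no filter, DESeq2 1.42.0, limma-voom (limma 3.58.1), a replicate block, leaving out each library, and adjustment over all annotated genes. Since these libraries also selected the features, a call is not independent evidence. Members, lists, motifs and ratios were chosen with earlier results of these data known. Of each list every gene in the table is named. Of the rows the name rule takes, 1 is not reported here, and class I in the ratios is HLA-B alone, which departs from the sum first planned.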

Additional observations from a re-analysis of the deposited data

How the results depend on the processing

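The level between the groups decided most. TMM, DESeq2 size factors, upper-quartile factors and total counts over the table shifted every log2 fold change up, by 1.2, 1.2, 0.862 and 0.344. Features called lower were 465, 462 and 887 under TMM, DESeq2 size factors and upper quartile, against 1762. Under TMM and DESeq2 size factors 1 of 3 class II genes was called lower (CD74), while HLA-B kept its call. CIITA was at -0.12 and -0.11, HLA-DPB1 at -0.32 and -0.31. These are their main values of -1.32 and -1.52 moved up by the shift of 1.2. Which level between the groups is right was not tested. Listed genes called lower were 6, 6 and 9 under TMM, DESeq2 size factors and upper quartile, against 15. Adjusted over all annotated genes, 9 of the 18 tested listed genes were lower and 1 higher. Of all 2465 tested features 1352 were then lower and 471 higher. The 4 genes kept their calls in that setting. Without 1 library, listed genes called higher were 1 to 2; the 4 genes kept their calls in each of these 6 fits.

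The replicate numbers gave no sign of pairing (correlations of same-numbered deviations -0.0187, -0.0593 and 0.00769), and a replicate block gave 1763 lower and 696 higher features, against 1762 and 697. In that fit CD74, CIITA, HLA-DPB1 and HLA-B had log2 fold changes of -1.72, -1.32, -1.52 and -3.53. Pairing the ratios within replicate numbers cannot change their mean differences. The exact p was then 0.25 in place of 0.1, and 0.5 in place of 0.3 for HLA-DPB1 to CD74.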
